A study of Mus musculus with 8 samples.

Results

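The levels of 10 matricellular and related matrix genes were followed in single FAPs (fibro/adipogenic progenitors), stromal cells that carry PDGFRα and lie between the fibres of skeletal muscle. They are fibronectin (Fn1), periostin (Postn), tenascin C (Tnc), osteonectin (Sparc), the thrombospondins Thbs1, Thbs2, Thbs4 and Comp, versican (Vcan) and tenascin X (Tnxb). The 10 genes were chosen by symbol, with earlier results of these data known, out of the 31053 genes in the files, and all 10 were found. FAPs came from hindlimb muscle of 8-month-old female mice, either dysferlin knockout (KO; the strain field reads BLA/J and the protocol text B6A/J) or wild type (WT) C57BL/6. Dysferlin is a membrane repair protein whose loss causes a muscular dystrophy. Live PDGFRα-positive cells were sorted and sequenced with a droplet-based 3′ kit, which counts each captured transcript once as a unique molecular identifier (UMI). The labels list 4 samples in each group, but each group was deposited as 1 pooled matrix with no map from cells to samples. Each group is therefore 1 library, no test between groups was possible, and genotype cannot be told apart from strain or from library preparation.

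Matricellular glycoproteins are secreted into the matrix, where most of them tune cell contact and growth factor signalling more than they bear load. Fibronectin is itself a structural fibril, versican a large proteoglycan that binds hyaluronan, and tenascin X a partner of collagen fibrils. In injured muscle, FAPs are a main source of the matrix that surrounds regenerating fibres, and periostin and tenascin C are known as genes of activated fibroblasts.

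Barcodes with at least 500 genes, at most 10% mitochondrial UMIs and at least 1 Pdgfra UMI were used: 1435 of 1724 in the KO matrix and 1533 of 2073 in the WT matrix. The loading protocol aimed at about 8000 cells. The cells used carried 19170199 UMIs in KO and 14420247 UMIs in WT, with medians of 12717 UMIs per KO cell and 9177 UMIs per WT cell. All 10 FAP markers were detected in both libraries, and at least 3 of them were present in each of these cells. Adipoq and Cidec were at 0 in both libraries. The 8 immune markers summed to 23.8 CPM (UMIs in each 1000000 of the library) in KO (8 of 8 detected) and to 2.01 CPM in WT (7 of 8, with Ptprc at 0). The 5 tenocyte markers summed to 35.7 CPM in KO and 30.0 CPM in WT, all detected in both. The 8 endothelial markers, also all detected, summed to 20.7 CPM in KO and 22.1 CPM in WT. Of the KO immune-marker UMIs, 342 were in 2 cells of a small cluster led by haemoglobin genes (cluster 12). Without it and cluster 9, which was led by mast cell genes, both left out after seeing the data, 5 of the 10 genes were still at least 1.5-fold higher in KO and 1 lower. Over all cells used, 5.07% of genes with a mean of at least 20 CPM were that much higher and 3.59% that much lower. Dysf, the gene named in the KO labels, had 14 UMIs in KO cells (95% Poisson interval 7.65 to 23.5) and 9 UMIs in WT cells (4.12 to 17.1). As 3′ tags do not show a disruption upstream, the gene gives no check of the labels. The 2 matrices share 13 barcodes, of which 2 are in the cells used from both; the count of genes past 1.5-fold was the same without them.

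As a group the 10 genes took a larger share of the KO transcripts. Together they made up 1.22% of all UMIs in KO cells, against 0.715% in WT cells. Summed over the cells of each library, 5 of the 10 (Postn, Fn1, Sparc, Thbs4 and Thbs1) were at least 1.5-fold higher in KO, beside 5.07% of the 5933 genes with a mean of at least 20 CPM. Comp was at least 1.5-fold lower, beside 3.59% of these genes. Over all cells Tnc, Vcan, Thbs2 and Tnxb lay within 1.5-fold, but Tnc was past it in 8 of 14 alternatives, in 1 of them lower in KO. The median log2 ratio of KO over WT was 0.62 for the 10 genes and 0.05 for all 5933. Because the 10 were chosen with earlier results of these data known, these contrasts describe the list and do not test it. Every one of the 10 passed the 20 CPM floor. These ratios carry exact binomial intervals for counting error only, which does not include the spread between animals.

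**Figure D1:**
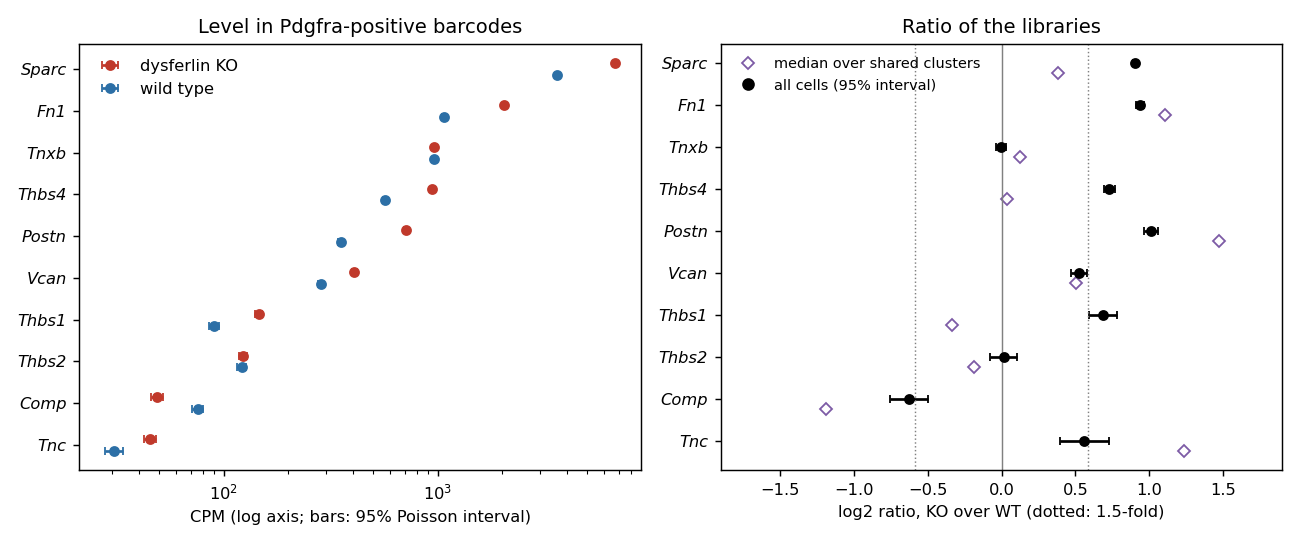
Left, the level of each gene in CPM on a log axis in dysferlin KO (red) and wild type (blue) cells, with 95% Poisson intervals that are often smaller than the points. Right, the log2 ratio of KO over WT over all cells (black, 95% interval) and the median over the 7 clusters with at least 25 cells of each library (open diamonds). The diamond of Tnc covers 3 of these clusters and that of Comp 5, as the rest had too few UMIs. Sparc is the highest gene in both libraries, the black points of Tnxb and Thbs2 lie on the line of no difference, and the diamonds of Sparc, Thbs4 and Thbs1 fall short of the 1.5-fold lines that their black points pass.

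A transcript gives 1 UMI whatever its length, so CPM values of different genes are set side by side without division by length. Sparc was the most abundant, with 6734 CPM in KO and 3599 CPM in WT. Fn1 came second in both libraries, with 2036 CPM in KO and 1065 CPM in WT. Tnxb, Thbs4, Postn and Vcan came next by mean level in both. In KO the counting intervals of Tnxb (945.6 to 973.4 CPM) and Thbs4 (928.3 to 955.8 CPM) overlapped, so their order there is not resolved. Thbs1 stood above Thbs2 in KO (145 and 123 CPM) and below it in WT (90.4 and 121 CPM). Comp and Tnc were lowest. In KO their counting intervals overlapped (45.7 to 52.1 CPM for Comp, 42.2 to 48.3 CPM for Tnc), so these neighbours did not differ beyond counting error either.

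To set cells of different depth side by side, each cell was also thinned to 4000 UMIs, which kept 1318 KO and 1323 WT cells and left out 117 KO and 210 WT cells. At this depth a median of 5 of the 10 genes was detected per KO cell (quartiles 4 and 6) and a median of 4 per WT cell (3 and 5). The 10 genes took a median of 41 of the 4000 UMIs in a KO cell and 20 in a WT cell. Sparc alone had a median of 21 UMIs in a KO cell and 9 in a WT cell. Cells with at most 3 of the genes made up 10.9% of KO cells and 34.5% of WT cells.

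Promoters are shown for 3 genes whose patterns contrast. Postn was seen in many more KO than WT cells. Thbs4 was higher in KO over all cells, but higher in 4 and lower in 3 of the 7 shared clusters. Tnxb was alike in both libraries. Sequences were found in RefSeq (GRCm38.p6) for 7 of the 10 genes, as windows of 300 bases from 250 before to 50 after the start site. Capitals mark matches to 4 motifs, each searched on both strands. The TATA box, with the letters TATAAA, occurs in 13.6% of 32544 distinct RefSeq promoter windows of this length. For the AP-1 site, TGANTCA, the share of windows is 7.79%. For the TEAD site, GGAATG, it is 14.6%. For the GC box, GGGCGG, it is 35.9%. The windows are chr3:54360857-54361156 on the plus strand for Postn, chr13:92794769-92795068 on the minus strand for Thbs4 and chr17:34670285-34670584 on the plus strand for Tnxb, each 5′ to 3′.
Postn: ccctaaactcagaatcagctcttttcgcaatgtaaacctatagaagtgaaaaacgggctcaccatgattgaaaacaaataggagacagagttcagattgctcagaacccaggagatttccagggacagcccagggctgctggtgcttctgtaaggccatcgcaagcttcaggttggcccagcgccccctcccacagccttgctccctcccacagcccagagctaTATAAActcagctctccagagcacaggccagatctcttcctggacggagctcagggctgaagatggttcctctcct
Thbs4: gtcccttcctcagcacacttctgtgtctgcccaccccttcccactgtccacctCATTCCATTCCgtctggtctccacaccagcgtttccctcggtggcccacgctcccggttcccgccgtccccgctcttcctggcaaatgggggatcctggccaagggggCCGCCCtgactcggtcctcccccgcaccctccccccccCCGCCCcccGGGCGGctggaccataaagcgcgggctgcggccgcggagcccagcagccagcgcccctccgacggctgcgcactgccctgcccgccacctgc
Tnxb: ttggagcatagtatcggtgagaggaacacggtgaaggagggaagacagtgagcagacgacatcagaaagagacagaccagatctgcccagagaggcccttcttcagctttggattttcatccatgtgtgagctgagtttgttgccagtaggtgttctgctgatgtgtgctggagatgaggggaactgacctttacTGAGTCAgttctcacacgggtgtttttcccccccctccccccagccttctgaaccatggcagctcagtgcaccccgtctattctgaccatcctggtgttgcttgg
The Postn window holds a TATAAA whose first base lies at -26 from the start site. The Thbs4 window holds no TATAAA but 3 GC boxes at -89, -51 and -42 and 2 TEAD matches at -197 and -192 that overlap each other by 1 base, and 72% of its bases are G or C. The Tnxb window holds 1 AP-1 match at -55. These are matches of letters only, and nothing was measured at the promoters.

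Sparc encodes osteonectin, a calcium- and collagen-binding glycoprotein that assists the deposition of collagen (chromosome 11, 55394500 to 55423183, minus strand, in the GRCm38 annotation). It had 129093 UMIs in KO and 51897 UMIs in WT, a log2 ratio of 0.90 (0.89 to 0.92). Nearly every cell held it: 99.8% of KO and 99.4% of WT cells at 4000 UMIs, and 99.7% of KO and 98.9% of WT cells before thinning. The median cell held 21 UMIs of 4000 in KO and 9 in WT. Its 10% highest cells held 26.2% of its UMIs in KO and 33.3% in WT, and outside those highest cells the mean was 20.6 UMIs in KO and 9.23 UMIs in WT. Its median log2 ratio within the 7 shared clusters was 0.38, under 1.5-fold.

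Fn1 encodes fibronectin, the dimeric glycoprotein that cells assemble into fibrils through integrins (chromosome 1, 71585520 to 71653200, minus strand). It had 39027 UMIs in KO and 15354 UMIs in WT, a log2 ratio of 0.94 (0.91 to 0.96). At 4000 UMIs it was seen in 88.7% of KO cells (95% Clopper-Pearson interval 86.9 to 90.4) and in 66.0% of WT cells (63.4 to 68.5); unthinned, the shares were 91.7% of KO and 72.9% of WT cells. Both the highest cells and the rest were higher in KO, with means of 26.6 UMIs in KO and 16.3 UMIs in WT in the top 10% and of 5.37 UMIs in KO and 2.28 UMIs in WT in the others. Apol7d, annotated on the opposite strand across the gene, had 13 UMIs in KO and 11 in WT.

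Postn encodes periostin, which binds collagen and αv integrins and marks activated fibroblasts (chromosome 3, 54361109 to 54391037, plus strand). Its sum was 13601 UMIs in KO and 5069 UMIs in WT, 709 CPM and 352 CPM, with a log2 ratio of 1.01 (0.97 to 1.06). Over all cells it is the 1 gene of the 10 past 2-fold, beside 1.77% of all genes, but this depends on the setting. At 4000 UMIs per cell Fn1 (1.02), Sparc (1.01) and Tnc (1.045) were past 2-fold too. The share of all genes past 2-fold at that depth is not given here. Centring on the median of all genes put Postn at 0.96, short of 2-fold. The sums hide a difference in spread. At 4000 UMIs, 51.2% of KO cells held a Postn UMI (48.5 to 53.9), against 10.2% of WT cells (8.62 to 11.96); unthinned, the shares were 59.6% of KO and 12.7% of WT cells. The 10% of KO cells with most Postn (132 of 1318) held 49.6% of its UMIs, and the other KO cells 1584 UMIs, a mean of 1.34 UMIs per cell. In WT the same share was 99.7%, which restates the share of positive cells, since 135 of 1323 WT cells held any Postn UMI.

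The highest Postn counts were in WT cells. The 99th percentile was 17.8 UMIs in KO and 21.8 UMIs in WT, and the maximum 48 UMIs in KO and 62 UMIs in WT. Cells with at least 10 Postn UMIs numbered 74 in KO, with 34.8% of the gene's UMIs, and 33 in WT, with 72.9%. Leaving out the 1% of cells with most Postn in each library gave a log2 ratio of 1.83. In those 33 WT cells Tnc averaged 1.70 UMIs, against 0.0264 in the other WT cells, and Cthrc1, a secreted collagen triple helix protein of activated fibroblasts, 1.64 against 0.00543. In the 74 KO cells, Tnc averaged 0.473 UMIs, against 0.121 in other KO cells, and Cthrc1 0.405 against 0.0442.

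Free RNA can put a UMI in a droplet whose cell does not express the gene. Among barcodes with no Pdgfra UMI and at least 3 immune markers, Postn was seen in 2 of 7 in KO, with 2 UMIs in all and a median depth of 14519 UMIs, and in 0 of 11 in WT (median depth 5109, upper limit of the 95% interval 28.5%). Fn1 was seen in 2 of these 7 KO barcodes and 0 of the 11 WT barcodes, and Sparc in 3 of the KO and 1 of the WT barcodes. The Postn level of these 7 KO barcodes was 20.02 CPM. In barcodes with no Pdgfra UMI and at least 3 endothelial markers, Postn was seen in 3 of 5 in KO (131.9 CPM, median depth 3232) and in 4 of 34 in WT (73.6 CPM, median depth 3269.5). The unthinned share of the Pdgfra-positive KO cells was 59.6%, at a median depth of 12717 UMIs. The interval of the share in the 5 KO barcodes, 14.7% to 94.7%, is too wide to tell whether the 2 shares differ. The Postn level of the Pdgfra-positive KO cells, 709 CPM, was above that of these few barcodes. Tnc was seen in 2 of the same 5 KO barcodes, at 66.0 CPM from 2 UMIs, which is not below its 45.2 CPM in the Pdgfra-positive KO cells. Within the KO FAPs, Postn was seen in 9.68% of the 124 cells of clusters 4 and 5, and in 77.8% of the 818 cells of clusters 2, 3 and 10, so its share differed between KO clusters.

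**Figure D2:**
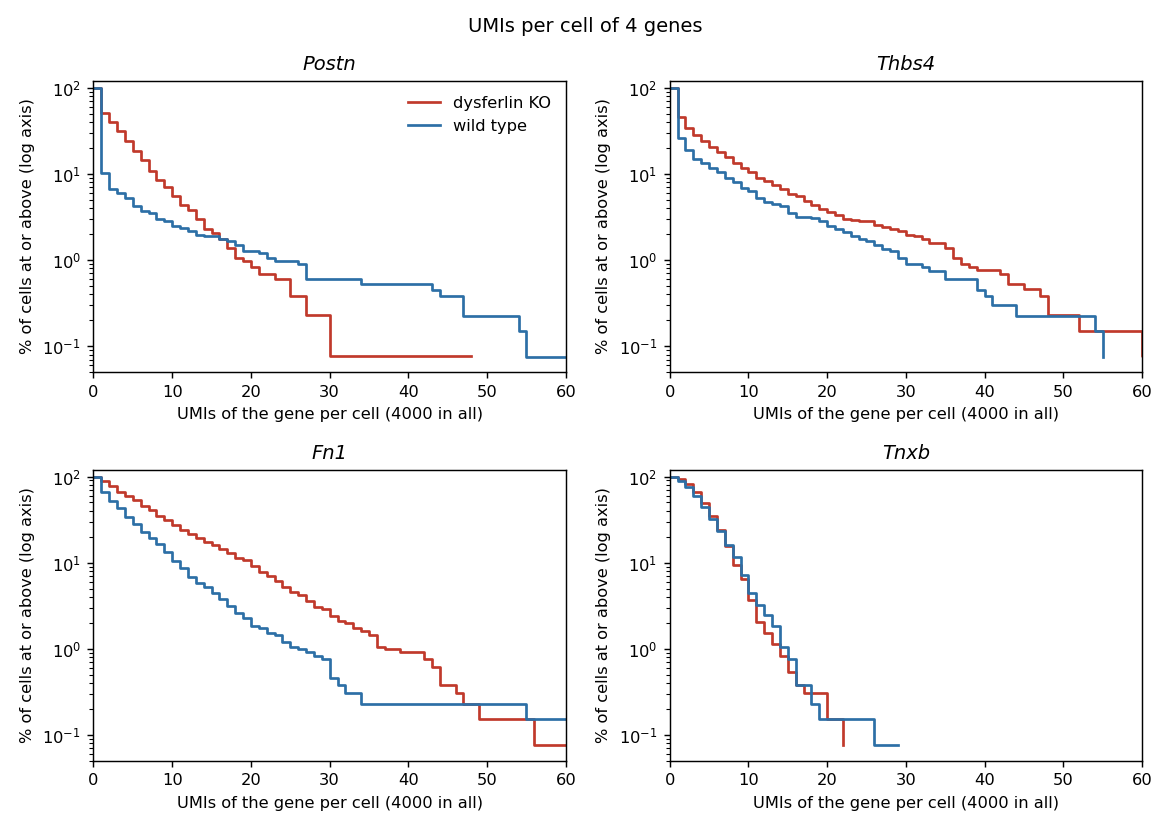
Each panel gives, for Postn, Thbs4, Fn1 or Tnxb, the percentage of cells (log axis) that hold at least the number of UMIs on the x axis, in dysferlin KO (red) and wild type (blue) cells thinned to 4000 UMIs. For Postn the KO curve starts at 51.2% and the WT curve at 10.2% at 1 UMI, and the curves cross at higher counts. The Tnxb curves run close together.

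Tnc encodes tenascin C, a hexameric glycoprotein that appears transiently after injury and in tendon (chromosome 4, 63959785 to 64047015, minus strand). It had 866 UMIs in KO and 442 UMIs in WT, 45.2 CPM and 30.7 CPM, with a log2 ratio of 0.56 (0.39 to 0.73). At 4000 UMIs it was seen in 7.06% of KO cells (5.73 to 8.57) and 2.49% of WT cells (1.72 to 3.49); unthinned, in 13.8% of KO and 3.33% of WT cells. A few cells decided its level. Unthinned, cells with at least 10 Tnc UMIs numbered 24 in KO, with 54.3% of the UMIs, and 16 in WT, with 80.8%. The log2 ratio of Tnc was 1.959 without the 1% of cells with most of it, 1.39 without possible doublets, 1.045 at 4000 UMIs per cell and 0.97 as a mean of per-cell CPM.

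Thbs4 encodes a pentameric thrombospondin of muscle and tendon matrix (chromosome 13, 92751590 to 92794818, minus strand). It had 18058 UMIs in KO and 8199 UMIs in WT, 942 CPM and 569 CPM, a log2 ratio of 0.73 (0.69 to 0.77). At 4000 UMIs it was seen in 45.3% of KO cells (42.6 to 48.0) and 26.3% of WT cells (23.9 to 28.8), and unthinned in 54.4% of KO and 30.0% of WT cells. Its 10% highest cells held 62.8% of the UMIs in KO and 81.0% in WT. Outside these cells the mean was 1.35 UMIs in KO and 0.399 UMIs in WT, a 3.39-fold difference, while inside them it was 1.34-fold (20.5 UMIs in KO and 15.3 UMIs in WT).

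Thbs1 encodes a trimeric thrombospondin that activates latent TGF-β and binds CD47 and CD36 (chromosome 2, 118111876 to 118127133, plus strand). It had 2785 UMIs in KO and 1303 UMIs in WT, 145 CPM and 90.4 CPM, with a log2 ratio of 0.69 (0.59 to 0.78). The ratio was past 1.5-fold in 10 of 14 alternatives: it was 0.54 at 4000 UMIs per cell, 0.40 as a mean of per-cell CPM, -0.33 by the median over shared clusters and 0.17 for pooled cells of shared clusters. At 4000 UMIs 19.6% of KO cells (17.5 to 21.8) and 14.97% of WT cells (13.1 to 17.0) held it. Unthinned, the shares were 32.7% of KO and 21.8% of WT cells. In 5 KO barcodes with endothelial markers and no Pdgfra it reached 1451 CPM (44 UMIs in 4 of 5), and in 34 such WT barcodes 39.3 CPM (8 UMIs in 4 of 34).

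Thbs2 encodes the closest relative of Thbs1, also a trimer (chromosome 17, 14665500 to 14694235, minus strand). Its levels were alike, with 123 CPM in KO and 121 CPM in WT (2353 UMIs in KO, 1752 UMIs in WT), and a log2 ratio of 0.01 (-0.08 to 0.10). At 4000 UMIs it was seen in 32.5% of KO cells (30.0 to 35.2) and 28.4% of WT cells (26.0 to 30.9), and unthinned in 57.9% of KO and 44.7% of WT cells. Comp, a pentameric thrombospondin of cartilage and tendon, was lower in KO (chromosome 8, 70373558 to 70382066, plus strand). It had 936 UMIs in KO and 1087 UMIs in WT, 48.8 CPM and 75.4 CPM, a log2 ratio of -0.63 (-0.75 to -0.50). Its share of cells at 4000 UMIs was 6.83% in KO (5.53 to 8.33) and 6.73% in WT (5.44 to 8.21), and unthinned 11.8% in KO and 8.48% in WT. The median over Comp-positive cells was 2 UMIs in KO and 3 UMIs in WT. The log2 ratio of Comp lay within 1.5-fold with at least 2 Pdgfra UMIs per cell (-0.47), at 4000 UMIs per cell (-0.51) and without the 1% of cells with most Comp (-0.39).

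Vcan, the hyaluronan-binding chondroitin sulphate proteoglycan versican (chromosome 13, 89655312 to 89742509, minus strand), had 408 CPM in KO and 283 CPM in WT (7817 UMIs in KO, 4086 UMIs in WT), a log2 ratio of 0.53 (0.47 to 0.58). It was detected in 65.3% of KO cells (62.7 to 67.9) and 53.4% of WT cells (50.7 to 56.2) at 4000 UMIs, and unthinned in 83.6% of KO and 65.6% of WT cells. Gm4117, antisense to Vcan, had 136 UMIs in KO and 94 in WT. Tnxb, the tenascin whose loss causes a form of Ehlers-Danlos syndrome in humans (chromosome 17, 34670535 to 34719815, plus strand), had 959 CPM in KO and 963 CPM in WT (18392 UMIs in KO, 13884 UMIs in WT). Its log2 ratio was -0.01 (-0.04 to 0.03), and 93.3% of KO cells (91.8 to 94.6) and 89.3% of WT cells (87.5 to 90.9) held it at 4000 UMIs. Tnxb was also the most evenly held gene in both libraries, with 24.9% of its UMIs in the top 10% of cells in KO and 27.6% in WT.

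**Figure D3:**
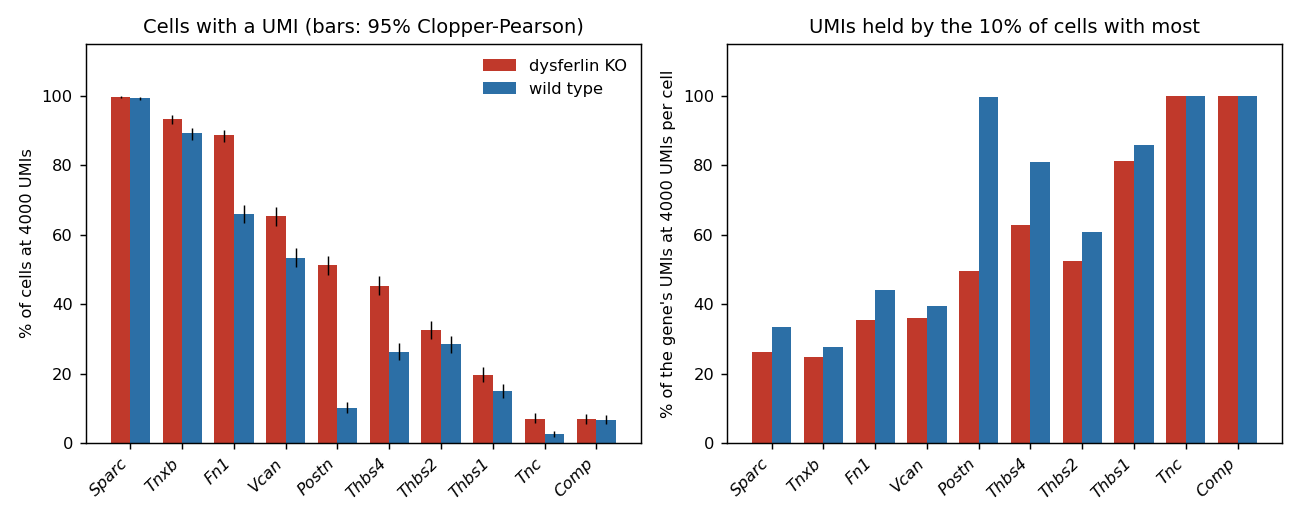
Left, the percentage of cells with a UMI of each gene in dysferlin KO (red) and wild type (blue) cells thinned to 4000 UMIs, with 95% Clopper-Pearson intervals. Right, the percentage of each gene's UMIs held by the 10% of cells with most of it. Postn was seen in 51.2% of KO and 10.2% of WT cells. The right panel is full where about 10% of cells or fewer hold a gene, as for Comp and Tnc in both libraries (100%) and Postn in WT (99.7%).

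To see which cells carry each gene, the KO and WT cells were clustered jointly, on variable genes that did not include the 10. In each of the 13 clusters, at least 8 of the 10 FAP markers were present in 50% or more of the cells, so clusters are called by number and leading genes. Clusters 2 (led by C1qtnf3, Adam12 and Emb), 3 (Cxcl9, Ccl2 and Ifi44) and 10 (Gm30075, Col6a6 and Cyp4b1) held 818 KO cells, 57.0% of that library, and 33 WT cells, 2.15%. Whether such a cluster is a kind of cell or a feature of 1 library cannot be told apart. Clusters 0, 1 and 4 to 8 had at least 25 cells of each library and are called shared.

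Postn, Thbs4, Sparc and Tnc were high in cluster 2. There Postn had 1099 CPM in KO and 1774 CPM in WT, Thbs4 1923 CPM in KO and 3592 CPM in WT, and Sparc 8837 CPM in KO and 6995 CPM in WT, over 420 KO but only 20 WT cells. Cluster 2 supplied 53.6% of all Postn UMIs and 70.6% of all Thbs4 UMIs of the KO library. In WT the main source of Postn was cluster 0 (Alpl, Nrxn2 and Trf), which supplied 64.7% of its Postn UMIs and 68.8% of its Tnc UMIs from 10.7% of its cells. In cluster 0 the levels were lower in KO: Postn had 294 CPM in KO and 1734 CPM in WT, Tnc 3.71 CPM in KO and 161 CPM in WT, and Thbs4 465 CPM in KO and 1419 CPM in WT. Thbs4 also had 301 CPM in KO and 1056 CPM in WT in cluster 1. Of the 33 WT cells with at least 10 Postn UMIs, 19 were in cluster 0; of the 74 such KO cells, 1 was there and 47 in cluster 2.

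Thbs1 and Tnc were high in KO cluster 3, whose leading genes are chemokines and interferon-induced genes. The 167 KO cells there, 11.6% of the library, supplied 38.9% of all KO Thbs1 UMIs, at 434 CPM, and 41.9% of all KO Tnc UMIs, at 145 CPM. In WT the highest Thbs1 level among clusters with at least 25 cells was 173 CPM in cluster 1, led by the early response genes Btg2, Nfkbiz and Egr1. Clusters 2 and 3 together supplied 91.1% of the KO Tnc UMIs.

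Fn1 and Vcan were high in cluster 6 (Dact2, Car8 and Wnt10b). Fn1 reached 4821 CPM there in KO and 2167 CPM in WT, and Vcan 609 CPM in KO and 398 CPM in WT. Thbs4 was low in this cluster, at 33.4 CPM in KO and 77.9 CPM in WT, and Postn stood at 905 CPM in KO and 229 CPM in WT. Thbs2 was highest in cluster 8 (Dkk2, Igfbp3 and Sfrp2), at 279 CPM in KO and 274 CPM in WT. Comp was high in clusters 4 (C7, Gdf10 and Fmo2) and 5 (Klf5, Cpe and Clu), with 249 CPM in KO and 184 CPM in WT in cluster 4 and 162 CPM in KO and 377 CPM in WT in cluster 5. The 20 WT cells of cluster 2 also had 339 CPM of Comp. Clusters 4 and 5 held 8.64% of KO cells and 19.8% of WT cells, and supplied 23.0% of the Comp UMIs in KO and 67.3% in WT. In KO, 54.3% of the Comp UMIs came from cluster 2, where 15.2% of the cells held it. The Tnxb level ran from 538 to 1248 CPM over the KO clusters and from 473 to 1301 CPM over the WT clusters with at least 25 cells.

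**Figure D4:**
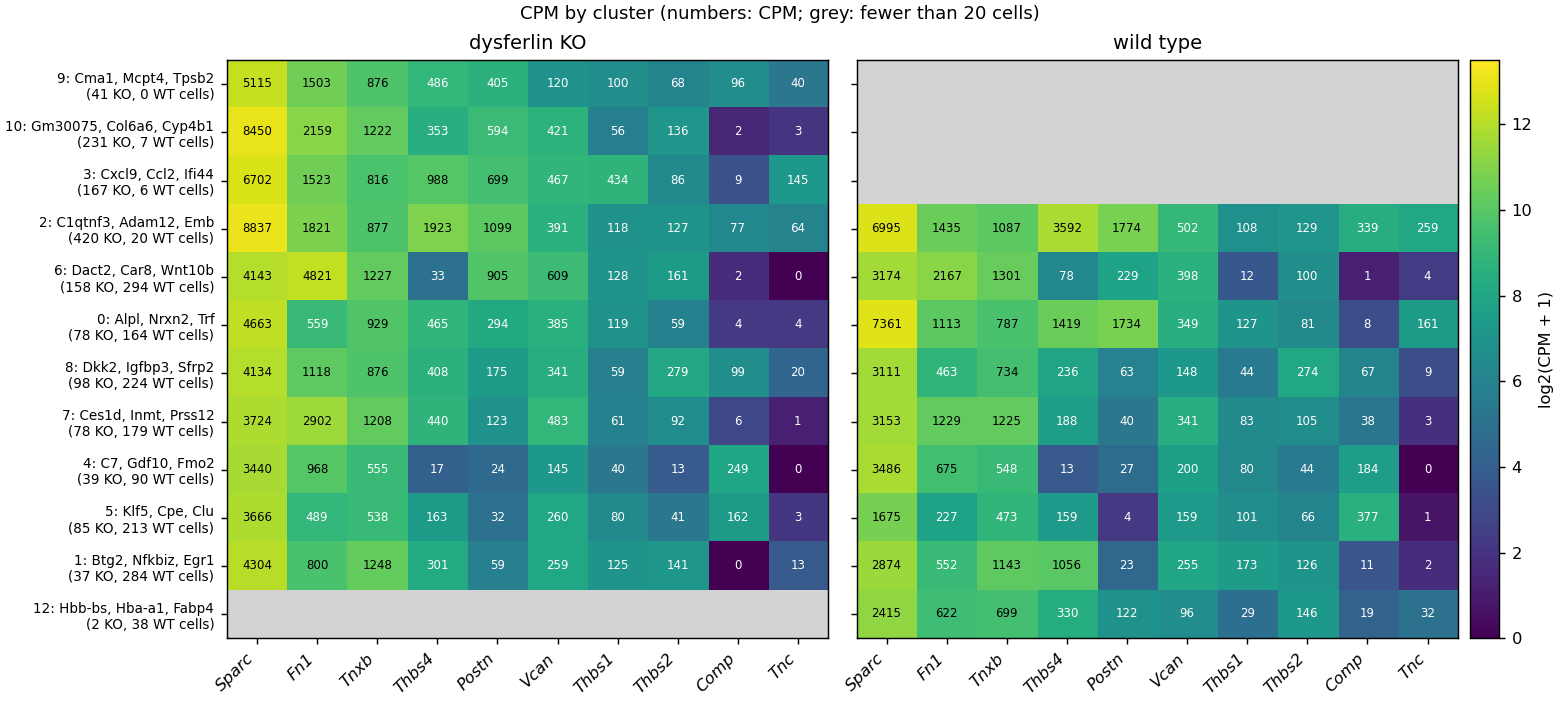
CPM of each gene by cluster in dysferlin KO (left) and wild type (right) cells; colour is log2(CPM + 1), numbers are CPM, rows give the 3 leading genes and the cells of each library, and grey marks fewer than 20 cells. Cluster 11 (1 KO and 14 WT cells) is not drawn. Fn1 peaks in cluster 6 in both panels, Comp in cluster 5 in WT, and Tnxb varies least down each panel.

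Within the 7 shared clusters some of the ratios held and others did not. By the median over these clusters, 3 of the 10 genes were at least 1.5-fold higher in KO (Postn, Tnc and Fn1), beside 3.86% of the 5931 genes measured so, and Comp was at least 1.5-fold lower, beside 1.65%. Fn1 was higher in KO in 6 of 7 clusters, with a median log2 ratio of 1.11 (-0.99 in cluster 0 to 1.27 in cluster 8). Postn was higher in 5 of 7, with a median of 1.47 and a range of -2.56 to 3.13. The highest ratio, in cluster 5, rests on 28 KO and 6 WT UMIs. KO Postn stood at 58.7, 32.1 and 123 CPM in clusters 1, 5 and 7. These levels are under the 131.9 CPM, from 4 UMIs, of the 5 KO barcodes with endothelial markers and no Pdgfra. In clusters 6 and 8, the others with a higher KO level, it stood at 905 and 175 CPM. Tnc could be compared in 3 clusters. Its median of 1.23 is the value of cluster 8, from 21 KO and 17 WT UMIs (interval 0.24 to 2.25, which reaches below 1.5-fold), and the range was -5.44 to 2.54; the lowest, in cluster 0, rests on 3 UMIs in KO (interval -7.72 to -3.88). Vcan was higher in 6 of 7 (median 0.50). Sparc was higher in 5 and lower in 2 (median 0.38), Thbs4 was higher in 4 and lower in 3 (median 0.04), and Thbs1 was higher in 2 and lower in 5 (median -0.33), so none of these 3 medians passed the 1.5-fold that the ratio over all cells passed. In cluster 6, Thbs1 had 128 CPM in KO and 12.1 CPM in WT. Few cells held it there: 9.49% of 158 KO cells, with 288 UMIs, and 6.80% of 294 WT cells, with 39 UMIs. Thbs2, alike over all cells, was higher in 3 and lower in 4, with a median of -0.18 and a range of -1.71 to 0.69. The lowest, in cluster 4, rests on 4 KO and 28 WT UMIs (interval -3.68 to -0.20), and the highest is that of cluster 6 (0.47 to 0.91). Tnxb stayed between -0.08 and 0.25 in all 7. Comp was compared in 5 clusters, higher in 2 and lower in 3; its median of -1.19 is the value of cluster 0, where KO had 3 UMIs (interval -3.61 to 0.62). Pooling the cells of the shared clusters alone, a choice made after seeing the data, gave log2 ratios of 1.23 for Fn1, 0.35 for Postn, 0.21 for Sparc, -1.12 for Thbs4 and -2.32 for Tnc.

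Over cells within a library most pairs of the 10 genes had a small r at this depth. Of 45 pairs, 33 in KO and 25 in WT had a Pearson r between -0.1 and 0.1 on log2(1 + UMIs) at 4000 UMIs per cell, over 1318 KO and 1323 WT cells. In sparse counts r is drawn towards 0, so weak values do not show that genes are unrelated. Fn1 and Vcan, for example, had 0.22 in KO at 4000 UMIs per cell and 0.29 at 8000. Postn and Sparc were the pair with the highest smaller r, at 0.47 in KO and 0.38 in WT (Spearman rho 0.50 in KO and 0.26 in WT). Fn1 and Postn had 0.34 in KO and 0.28 in WT, and Fn1 and Tnxb 0.28 in both. Postn and Tnc had 0.16 in KO and 0.46 in WT. Fn1 and Sparc, the most abundant pair, had 0.08 in KO and 0.14 in WT. Among the 4 thrombospondins the highest r was 0.12, for Thbs1 and Thbs4 in WT: Thbs1 and Thbs2 had -0.02 in KO and -0.03 in WT, and Thbs4 and Comp 0.05 in KO and 0.06 in WT. The lowest pair was Comp and Tnxb, at -0.12 in KO and -0.16 in WT.

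**Figure D5:**
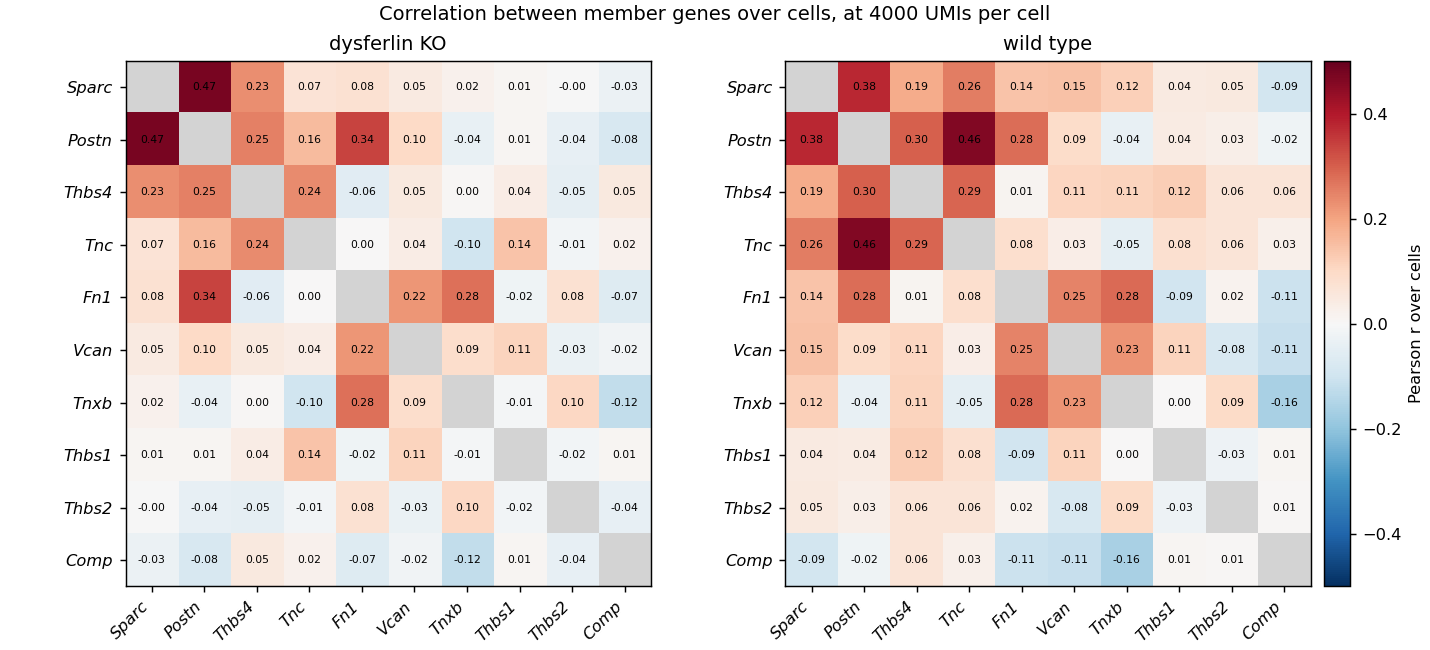
Pearson r over cells for each pair of genes in dysferlin KO (left, 1318 cells) and wild type (right, 1323 cells), at 4000 UMIs per cell; red is positive, blue negative and grey the diagonal. Postn and Sparc reach 0.47 in KO and 0.38 in WT, and the rows of Thbs1, Thbs2 and Comp stay pale.

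The genes most like each member were named by the smaller of its KO and WT r. Sparc was most like the fibrillar collagen genes Col3a1 (0.74 in KO, 0.67 in WT), Col1a1 (0.71 and 0.65) and Col1a2 (0.70 and 0.62). Postn was most like Col1a1 (0.47 and 0.39), Sparc and Col1a2 (0.45 and 0.36). Thbs4 was most like Cilp, a cartilage matrix protein (0.60 in both), Col8a1 (0.53 and 0.62) and the microfibril gene Mfap4 (0.47 and 0.50). Fn1 was most like the microfibril gene Fbn1 (0.44 and 0.49), the secreted guidance factor Sema3c (0.41 and 0.47) and Anxa3 (0.41 and 0.44). Tnc came closest to the metalloproteinase inhibitor Timp1 (0.36 and 0.43), then Col8a1 (0.27 and 0.32) and Thbs4. Vcan came closest to Fbn1 (0.31 and 0.38), Fstl1 (0.28 and 0.36) and Fn1, and Tnxb to Fndc1 (0.32 and 0.39), Clec3b (0.29 and 0.34) and the basement membrane gene Nid1 (0.29 and 0.38). The rest had weak best matches: Comp with Cst3 (0.24 and 0.31), Gdf10 and Gas6, Thbs2 with Gpx3 (0.19 and 0.23), Ogn and Igfbp3, and Thbs1 with Cebpb (0.16 and 0.15), Emp1 and Adamts4.

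Other matricellular and glycoprotein genes did not follow the 10 as a list. Of 26 measured, 4 were at least 1.5-fold higher in KO and 7 at least 1.5-fold lower, beside 5.07% and 3.59% of all genes, with a median log2 ratio of 0.06. The fibulin Fbln7 had 236 CPM in KO and 92.0 CPM in WT (1.36), and the collagen-binding Aebp1 1209 CPM in KO and 618 CPM in WT (0.97). Vit had 30.3 CPM in KO and 66.2 CPM in WT (-1.13), and the proteoglycan Spock2 29.5 CPM in KO and 63.3 CPM in WT (-1.10).

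Of 33 receptors and binding partners in the files, 17 passed the 20 CPM floor. Of these 17, 15 were within 1.5-fold, with a median of 0.01. In KO 1 was higher and 1 lower, beside 5.07% and 3.59% of all genes. The hyaluronan receptor Cd44 had 97.8 CPM in KO and 56.4 CPM in WT (0.79), and Tlr4 20.1 CPM in KO and 32.3 CPM in WT (-0.68). The fibronectin and periostin receptor subunits lay close to each other in the libraries: Itgav had 84.1 CPM in KO and 69.8 CPM in WT, Itga5 74.3 CPM in KO and 57.1 CPM in WT, and Itgb1 389 CPM in KO and 326 CPM in WT. The thrombospondin receptor Cd47 had 519 CPM in KO and 567 CPM in WT. Genes with a mean below the 20 CPM floor went both ways. Cd36 had 2.66 CPM in KO and 4.92 CPM in WT (-0.89). Sdc3 had 23.3 CPM in KO and 7.49 CPM in WT (1.64). Sdc1 had 24.6 CPM in KO and 10.1 CPM in WT (1.29), and Notch1 12.8 CPM in KO and 5.83 CPM in WT (1.13). Processing proteases had 6 of 11 measured members at least 1.5-fold higher in KO and none lower, beside 5.07% and 3.59% of all genes. Their median was 0.62. Mmp3 had 376 CPM in KO and 62.5 CPM in WT (2.59), Adamts15 35.9 CPM in KO and 15.1 CPM in WT (1.25), Mmp14 341 CPM in KO and 175 CPM in WT (0.96) and Mmp2 1090 CPM in KO and 608 CPM in WT (0.84). Of 13 TGF-β inputs, 1 was at least 1.5-fold higher in KO and none lower, beside 5.07% and 3.59% of all genes. Il13ra1, the higher 1, had 51.1 CPM in KO and 29.9 CPM in WT (0.77). The median of the inputs was 0.06.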

How the data were processed

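The authors deposited 1 matrix per group of raw counts, UMIs of each gene in each barcode, not normalized. The file headers give software version 3.0.2. The submitters' processing notes list Cell Ranger 3.0.0, Seurat and mm10 without saying what each did. How empty droplets were removed: not given in the sources used here. Counts were analysed with Python 3.11.15, numpy 2.4.6, scipy 1.17.1 and scanpy 1.11.5. CPM, computed here, is a gene's summed UMIs divided by all UMIs of the cells used, in each 1000000. Ratios have exact conditional binomial intervals, sums exact Poisson intervals and shares exact Clopper-Pearson intervals, at 95%, all for counting error only. Folds of 1.5 and 2 are sizes, not tests. The code was tested on simulated data. Per the labels' protocols, the sort gated out doublets; none were called here, and an alternative leaves out likely ones. Clustering used 2000 variable genes without the 10 members, 30 components, 15 neighbours and Leiden resolution 0.8, with no integration. Positions are from GENCODE M21 (GRCm38). Leading genes of a cluster had the highest fold over other cells among genes in at least 25% of its cells. Besides the members, the 3 genes most like each, and from each other list up to 4 genes past 1.5-fold with the largest absolute ratio and the main receptors, were named. Sdc3, Sdc1 and Notch1, below the floor, were named after seeing the data. The members and lists were chosen with earlier results of these data known.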

Additional observations from a re-analysis of the deposited data

How the results depend on the processing

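The log2 ratio of each of the 10 genes was recomputed under 14 alternatives, 3 of them chosen after seeing the data. Fn1, Postn, Sparc, Vcan and Comp kept their sign in all 14, and Fn1 stayed past 1.5-fold in all 14 (0.88 to 1.23). Thbs1 turned to -0.33 by the median over shared clusters, and Thbs4 to -1.12 when only cells in shared clusters were pooled; Tnc, within 1.5-fold over all cells, was past it in 8 of 14, with -2.32 there and values above 0 under the other 13. Thbs1 stayed past 1.5-fold in 10 of 14. Thbs2 and Tnxb, near 0, ran from -0.18 to 0.15 and from -0.06 to 0.13. The median of the 10 genes, 0.62 over all cells, was 0.82 without possible doublets, 0.80 without the 1% of cells with most of each gene, 0.26 by the median over shared clusters and 0.16 for pooled cells of shared clusters. The number of genes at least 1.5-fold higher was 3 and 2 under these last settings, against 5. The number at least 1.5-fold lower, 1 over all cells, was 0 with at least 2 Pdgfra UMIs, at 4000 UMIs per cell and without the 1% of cells with most of each gene, and 2 for pooled cells of shared clusters. Of all genes, 5.07% were that much higher and 3.59% lower over all cells. By the median over shared clusters these shares were 3.86% and 1.65%. For pooled cells of shared clusters and the other settings no such share is given, so those counts have no background beside them. With floors of 5 and 1 CPM in place of 20, 6.42% and 9.71% of all genes were at least 1.5-fold higher and 4.31% and 6.99% at least 1.5-fold lower. For the shift between all cells and shared clusters the cause was not tested. No paired analysis was possible because each group is 1 pooled matrix; for the same reason no sample could be left out in turn. Tnc and Comp were seen in few cells: at 4000 UMIs in 7.06% and 6.83% of KO cells. The Comp share changed little with depth in WT, with 5.44%, 6.73% and 6.94% of cells at 2000, 4000 and 8000 UMIs. In KO it was 4.98%, 6.83% and 9.57%. The Thbs2 share rose more, from 17.5% to 46.4% of WT cells and from 20.6% to 48.8% of KO cells between 2000 and 8000 UMIs.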

Other observations

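Cluster 9 held 41 KO cells and no WT cell and was led by the mast cell genes Cma1, Mcpt4 and Tpsb2 and the immunoglobulin gene Igkc beside all 10 FAP markers. In it 75.6% of cells held a Comp UMI at 96.1 CPM (69 UMIs), against 9.90% of all other KO cells, and all of its cells held Postn, at 405 CPM. Other genes were widely seen there too. Thbs4 was in 90.2% of its cells, Thbs1 in 73.2% and Tnc in 43.9%, against 53.3%, 31.5% and 12.9% of all other KO cells. Vcan (85.4% and 83.5%) and Thbs2 (58.5% and 57.9%) differed little. Cluster 12, with 2 KO and 38 WT cells, was led by the haemoglobin genes Hbb-bs and Hba-a1 and the endothelial gene Gpihbp1, and held Postn in 63.2% of its WT cells at 122 CPM (46 UMIs), against 12.7% of all WT cells used. Its WT cells also held Thbs4 in 84.2% and Tnc in 26.3%, against 30.0% and 3.33% of all WT cells. Thbs1 (21.1% and 21.8%) was alike and Vcan (55.3% and 65.6%) was seen less often. Without clusters 9 and 12 the log2 ratio of Comp was -0.70 and that of Postn 1.02.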
